A study of Mus musculus with 6 samples.

Results

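Carbonic anhydrases are the enzymes that interconvert carbon dioxide and bicarbonate, and 9 of their genes were described here in the otic vesicle (the epithelial precursor of the inner ear). The members were Car13, Car2, Car3, Car4, Car8, Car10, Car11, Car12 and Car14, out of 18193 genes named on the arrays and 16 genes of the family. All 20 probe sets that the platform annotation gives to one of these symbols alone were taken, none dropped for being dim. The family was chosen from an earlier analysis of the same comparison, in which Car13 was one of 13 genes past the threshold of limma with a level-dependent variance prior (adjusted p = 0.0132 in the fit repeated here). Differences of the members between the groups are therefore a description, and the p-values of limma printed for them show only how the call behind that choice behaves and support nothing.

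The 6 arrays came from mouse embryos at embryonic day 11.5, with 3 arrays for each group. The Mest-KO group consisted of conditional Tbx1 knockouts made with T-Cre, a recombinase driven from the T (Brachyury) gene and active in early mesoderm, so the deletion was aimed at the tissue around the vesicle and not at its epithelium. The controls were T-Cre conditional Tbx1 heterozygotes, so every embryo of either group carried the same recombinase, and the control group was not wild type. Each array held RNA of both ears of 3 pooled embryos of one genotype, after dispase treatment meant to remove periotic tissue. Arrays within a group are labelled as biological replicates. In bulk RNA of this kind, fewer cells of a type and less RNA per cell cannot be told apart.

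By textbook knowledge, the family sorts by place and activity. Car2, Car3 and Car13 encode cytosolic enzymes, Car2 a very fast one and Car3 a slow one known from muscle and fat. Car4 is anchored by a lipid to the outer face of the cell membrane, while Car12 and Car14 span the membrane with the catalytic domain outside. Car8, Car10 and Car11 have lost catalytic activity: Car8 binds an inositol trisphosphate receptor, and Car10 is a secreted partner of neurexins. In the inner ear, bicarbonate takes part in setting the pH of the endolymph and in forming the calcium carbonate crystals of the otoconia. The endolymphatic duct and sac, which grow from the vesicle, later contain acid-base transporting cells marked by the transcription factor Foxi1, the anion exchanger pendrin (Slc26a4), a vacuolar proton pump and cytosolic carbonic anhydrase.

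All values below are linear intensities after quantile normalization, differences are log2 Mest-KO minus control, and SE is that of the limma fit over all 45037 probe sets unless stated, with n = 3 arrays per group. Arrays are listed as replicates 1, 2 and 3, which carry no order. Since probes differ in how brightly they hybridise, levels are compared within a probe set and never between genes. A probe set counts as dim below the 40th percentile of the mean level of all probe sets, an intensity of 34.4. Of the 20 probe sets 12 lay above this level and 8 below it, so that 7 of the 9 genes could be read above it. Car8 and Car10 could not.

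Tbx1, the targeted gene, had intensities of 897, 703 and 717 in Mest-KO and 881, 698 and 778 in control at its 1 probe set. The difference was -0.03 (SE 0.165; exact two-sided permutation p = 1, with 0.1 the lowest p possible for 3 against 3), and leaving out Mest-KO replicate 2 or 3 or control replicate 1 turned its sign. With the deletion aimed at mesoderm and the probe position not given in the sources used here, this value does not check the labels. All 9 measured genes of a 10-gene otic epithelium list (among them Epcam, Oc90 and Sox10) lay above the level filter, as did all 10 mesenchyme and all 10 neuron markers, so passing this level does not set the epithelium apart from other cells. The array Mest-KO 3 stood apart on the first principal component (36.4 against -10.3 to -1.77), and 2 pools held embryos of one sex: Xist was at 18.8 in Mest-KO 1 and Eif2s3y at 13.4 in control 2. Leaving out each array in turn, or both single-sex pools together, kept the sign of Car13, Car2, Car3 and Car14.

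Among the cytosolic enzymes, all 3 genes read lower in Mest-KO at their brightest probe set, with groups that did not overlap. Over all genes tested 5.85% were lower without overlap, and since the set includes the gene it was chosen for, nothing is read from this count. Car13 showed this at each of its 3 probe sets, by 1.52-fold to 1.96-fold, Car2 by 1.28-fold and Car3 by 1.35-fold. The membrane-bound and inactive members showed no such separation at any probe set.

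Car13 had the largest difference of the 7 member genes above the filter. At its brightest probe set the intensities were 481, 459 and 502 in the Mest-KO pools and 976, 871 and 776 in the controls. Group means were 481 ± 21.6 (SD, n = 3) and 874 ± 100 (SD, n = 3), a difference of -0.86 (SE 0.136), and the highest Mest-KO pool stayed well below the lowest control pool. Its second brightest probe set gave 210, 206 and 209 against 480, 405 and 350, a difference of -0.97 (SE 0.154). There the Mest-KO pools lay almost on one value (coefficient of variation 0.860%, or 3.71% on the deposited scaling), whereas the controls varied by 15.8% (18.0% on the deposited scaling). At the dimmest of the 3 the values were 132, 159 and 141 against 254, 218 and 187, a difference of -0.60 (SE 0.166), again with no overlap. In the controls, replicate 1 was the highest and replicate 3 the lowest at all 3 probe sets. The spread of Car13 was thus mostly among control pools, and without control replicate 1 the difference at the brightest probe set was -0.78.

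Car2 was read by 1 probe set. Its intensities were 2504, 2455 and 2670 in Mest-KO and 3190, 3281 and 3288 in control, means of 2543 ± 113 (SD) and 3253 ± 54.3 (SD). The difference of -0.36 (SE 0.107) was small in size, yet the pools of each group lay close together, with coefficients of variation of 4.44% and 1.67% (3.36% and 3.47% on the deposited scaling). With 1 array left out at a time it ran from -0.39 to -0.33.

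Car3 was read by 4 probe sets that did not all point the same way. The brightest gave 311, 344 and 290 in Mest-KO and 416, 472 and 393 in control, a difference of -0.44 (SE 0.138) without overlap. At the third brightest, close to the level filter, the difference was -0.46 (SE 0.312), and at the dimmest, below the filter, it was -0.64 (SE 0.855). Both had overlapping groups. The remaining one, second in brightness, differed by 0.22 (SE 0.309), the opposite sign, with a single high Mest-KO pool at 126 and the other 5 arrays between 60.7 and 77.1. Where the mean of all 4 probe sets stood for Car3, its difference was -0.33 and its groups overlapped, and its most variable probe set was the one below the filter. The lower reading of Car3 thus rested on its brightest probe set.

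**Figure D1:**
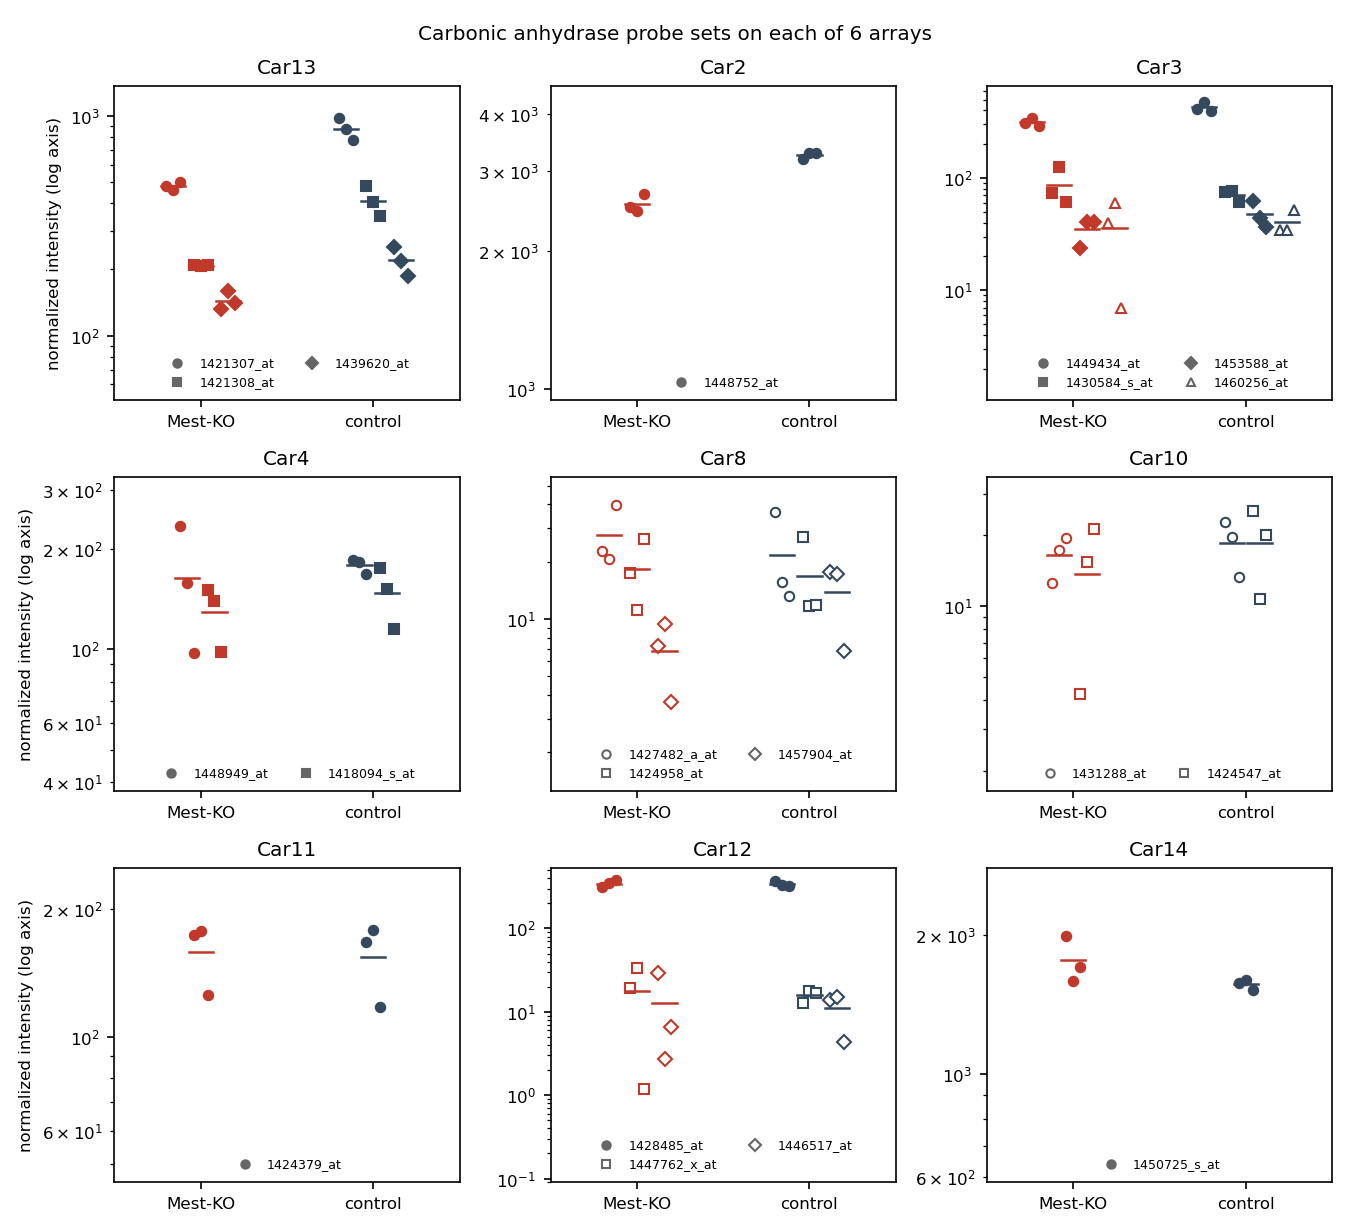
Normalized intensity (log axis) of each probe set of the 9 genes, in Mest-KO (red) and control (blue); each point is 1 of 3 pools in the order of replicate number, the short line is the group mean, symbols tell probe sets apart, and open symbols mark probe sets below the level filter. The 3 probe sets of Car13, the probe set of Car2 and the brightest of Car3 separate the groups, and those of the other genes do not.

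The enzymes with an outward-facing or membrane-anchored catalytic domain gave differences near or below their SE. Car4 had 234, 158 and 97.4 in Mest-KO and 185, 183 and 168 in control at its brighter probe set, a difference of -0.22 (SE 0.338). The Mest-KO pools lay on both sides of the controls and varied far more (coefficient of variation 42.0% against 5.24%). Its other probe set gave -0.19 (SE 0.249), also with overlap. Over the arrays left out in turn, the difference of Car4 ran from -0.53 without Mest-KO replicate 1 to 0.11 without Mest-KO replicate 3, so it had no steady sign.

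Car12 was the flattest of the members read above the filter. At its brightest probe set it had 310, 346 and 379 in Mest-KO and 372, 329 and 319 in control, a difference of 0.02 (SE 0.139). Its other 2 probe sets were dim, and their SE of 1.31 and 1.01 exceeded their differences of -0.76 and -0.27. Car14 was read by 1 probe set, at 1992, 1592 and 1701 in Mest-KO against 1576, 1595 and 1518 in control. The difference of 0.17 (SE 0.133) came mainly from Mest-KO replicate 1, and replicate 2 lay within the range of the controls. It was 0.07 without replicate 1 and 0.01 with arrays centred on the median of all probe sets.

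Of the catalytically inactive members, only Car11 was read above the filter. Its intensities were 174, 177 and 125 in Mest-KO and 167, 178 and 118 in control, so replicate 3 was the lowest of each group and the difference was 0.05 (SE 0.239). Car8 lay between 3.65 and 39.7 over its 3 probe sets and all arrays, and Car10 between 4.25 and 25.2 over its 2. At these levels their differences, -1.02 to 0.43 for Car8 and -0.65 and -0.17 for Car10, came with SE from 0.284 to 0.708, and a difference could not be resolved in either direction.

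**Figure D2:**
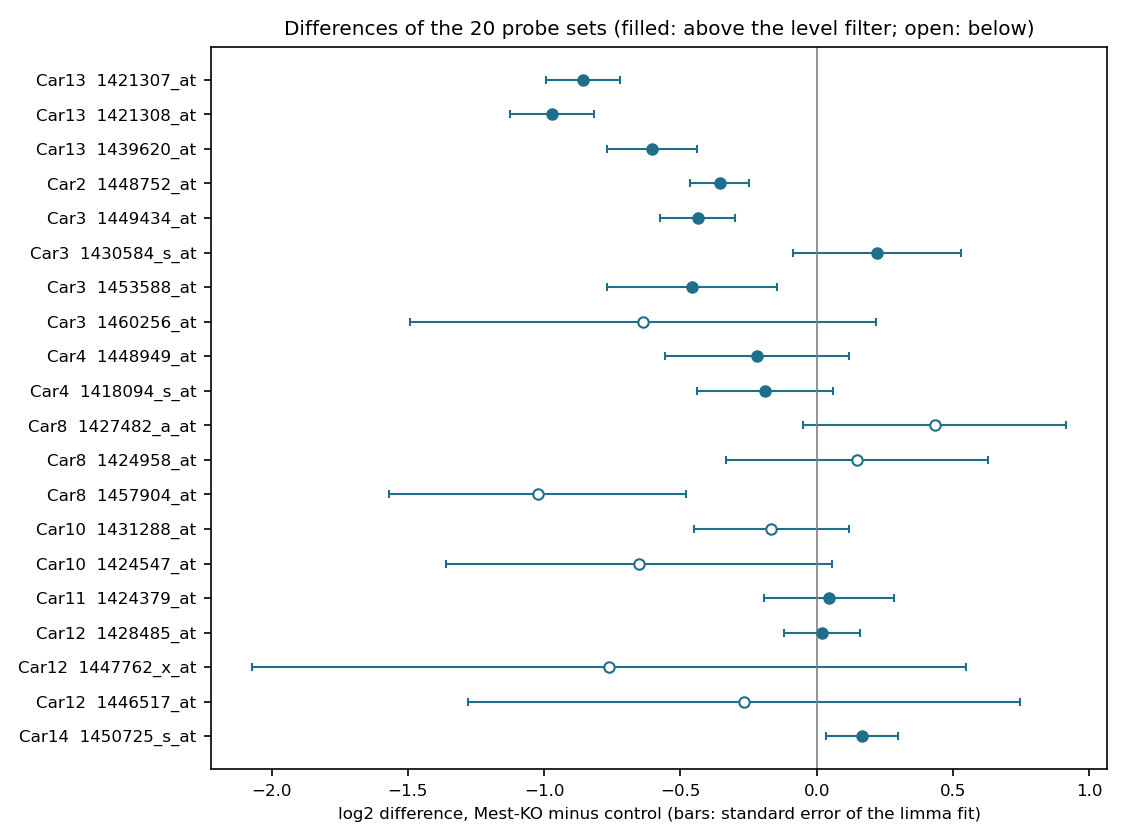
Log2 difference, Mest-KO minus control (x axis), of each of the 20 probe sets (rows), bars showing the SE from limma; filled points lie above the level filter and open points below it. Values run from -0.97 at Car13 to 0.22 at Car3 among filled points, and the SE of the open points run from 0.284 to 1.31.

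Counted over the family, 4 of the 7 genes above the filter read lower and 3 higher, with a median of -0.22 beside -0.0033 for all 12462 genes tested. The median of so few genes moved readily, from -0.35 without Mest-KO replicate 1 to -0.05 without Mest-KO replicate 3. Groups did not overlap on the lower side for 3 of the 7, against 5.85% of all genes tested, and for 5 of the 12 probe sets above the filter, against 5.2% of all 27022 such probe sets. None of the 7 passed an adjusted p under 0.05 in limma with a single variance prior, a test that called 0% of the 12462 genes (641 had an unadjusted p under 0.05, and the smallest adjusted p was 0.0897). With the level-dependent prior 1 of the 7 was called, Car13, against 0.0963% of all genes called as lower. Fitted by probe set, 0 of the 20 passed with the single prior, which called 0.00222% of all 45037. Because the family was taken up on account of Car13 in this same comparison, nothing is read from these counts.

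The calls on Car13 depended on the settings. With the level-dependent prior its adjusted p in limma lay between 0.0307 and 0.148 as arrays were left out in turn, and it passed without Mest-KO replicate 1 or 3 or control replicate 3, and did not pass without Mest-KO replicate 2 (0.0870) or control replicate 1 (0.148) or 2 (0.104). With the mean of its probe sets the value was 0.153 and with the most variable one 0.0909. Its log2 difference lay between -0.99 and -0.78 over the 13 distinct values that the alternatives gave, since filters, variance priors and the block leave a fitted difference as it is.

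The 3 cytosolic enzymes among the members, Car13, Car3 and Car2, lie together on chromosome 3. There RefSeq (assembly GRCm38.p6, used for the order of genes only) lists Car13, Car1, Car3 and Car2 as consecutive protein-coding genes. Car1, the red cell isozyme, was read by 1 probe set far below the filter, at 1.42 to 15.3 over all arrays, so its difference of 0.29 (SE 1.06) carries no direction. On the Car13 side the next protein-coding genes are Rbis, E2f5, Lrrcc1 and Slc7a12. At their brightest probe sets Rbis differed by -0.05 (SE 0.117), E2f5 by 0.16 (SE 0.144), Lrrcc1 by -0.08 (SE 0.123) and Slc7a12 by -0.15 (SE 0.412), each with overlapping groups. Of the 4 next protein-coding genes on the Car2 side, Gm9733, Sirpb1a, Sirpb1b and Sirpb1c, Sirpb1a had the 1 named probe set, which lay below the filter and ran from 3.97 to 71.8 over the arrays without order by group. Most of these neighbours thus read slightly lower too, within their SE, and none separated the groups at its brightest probe set. Whether the cluster differs from its neighbours was not tested, and Car14, also on chromosome 3 but outside the cluster, had the opposite sign.

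**Figure D3:**
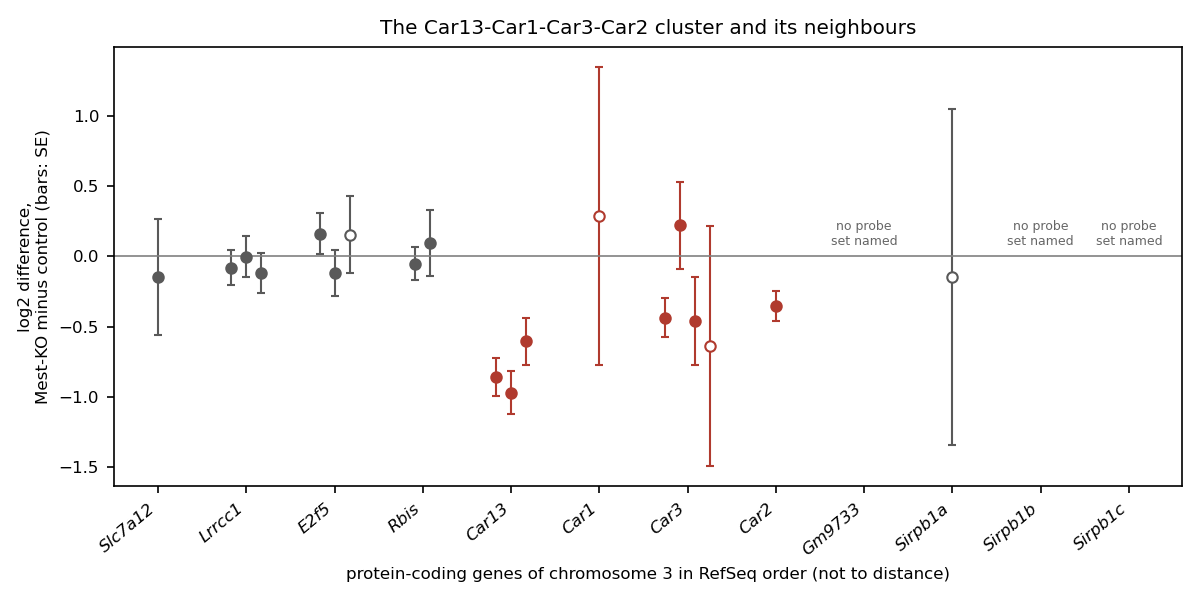
Log2 difference, Mest-KO minus control (y axis), bars showing the SE from limma, for every named probe set of the carbonic anhydrase cluster of chromosome 3 (red) and the 4 protein-coding genes on each side (grey), placed in RefSeq order and not by distance; open points lie below the level filter. Car13 lies between -0.97 and -0.60, and the filled points of the flanking genes between -0.15 and 0.16.

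Over the 6 arrays, the log2 profiles most like that of Car13 among the genes tested were those of Guk1 (Pearson r = 0.997), Gdnf (0.994) and Scara3 (0.993). Guk1 encodes a guanylate kinase, Gdnf a neurotrophic growth factor and Scara3 a scavenger receptor. They differed by -0.20, -1.18 and -0.98, so likeness of profile did not mean likeness of size. The profile of Car2 was nearest to Gata3 (r = 0.987), which encodes a transcription factor required to form the inner ear, followed by Insyn2a (0.986) and Rtf2 (0.985). Gata3 had intensities of 1100, 917 and 1141 in Mest-KO and 2161, 2068 and 2148 in control, with no overlap between the groups. Nearest to Car3 were Ercc8 (0.995), Ufl1 (0.990) and Htra3 (0.981), and nearest to Car14 were Dusp3 (0.993), Olfml3 (0.985) and 1810044D09Rik (0.982). These are the top genes of 12462 over 6 points that share their arrays, and they serve as a description only.

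The 7 other family members on the arrays were mostly too dim to read. Car1, Car5a, Car5b, Car7 and Car9 lay below the filter, among them both mitochondrial isozymes, and Car9, a membrane enzyme induced by hypoxia. Car6, the secreted salivary isozyme, gave 51.8, 85.6 and 59.2 in Mest-KO and 84.8, 87.5 and 113 in control, a difference of -0.56 (SE 0.213 in the gene fit). Car15, a lipid-anchored isozyme, gave 87.4, 49.4 and 45.1 against 84.5, 105 and 68.5. Its difference was -0.54 (SE 0.285 in the gene fit). Both read lower on average, both had groups that overlapped by 1 Mest-KO pool, and neither passed (limma adjusted p = 0.909 for each).

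Genes that work with carbonic anhydrases in acid-base transport were counted from lists drawn up by function. In the gene fit, limma called 0 genes of each list at an adjusted p under 0.05, with either variance prior. No list had more than 1 gene at an unadjusted limma p under 0.05. The SE of each listed gene is that of this gene fit unless stated. Bicarbonate and anion exchangers had 8 genes above the filter, 3 higher and 5 lower, with a median of -0.02 that turned positive under 5 of 19 alternatives. Slc26a4, which encodes pendrin, had the smallest p of the list. Its intensities were 40.4, 42.3 and 60.7 in Mest-KO and 65.6, 61.9 and 79.8 in control, a difference of -0.55 (SE 0.186; limma adjusted p = 0.909), and the groups were separate by a narrow margin. Slc4a2 and Slc4a4, an anion exchanger and a sodium bicarbonate cotransporter, differed by -0.15 and -0.02. Below the filter, Slc4a10 differed by -1.02 (SE 0.355 in the probe set fit) without overlap, at 7.21 to 29.5 over the arrays. Slc4a5, Slc4a9 and Slc26a3, also below it, read higher with overlap.

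Subunits of the vacuolar proton pump were higher for 3 and lower for 11 of the 14 genes read above the filter, with a median of -0.07, which was -0.22 with median centring over all probe sets and -0.12 to -0.05 with an array left out. Atp6v1c1 had the smallest p, at 1123, 991 and 926 in Mest-KO against 1203, 1366 and 1362 in control, a difference of -0.37 (SE 0.108; limma adjusted p = 0.878). Its other probe sets gave -0.14 and -0.03 with overlap, so the separation held for the brightest one alone. Atp6v1b1 lay below the filter, at 7.63 to 22.9 over the arrays, and differed by -1.06 (SE 0.280 in the probe set fit) without overlap. Also below the filter, Atp6v0d2 read lower and Atp6v0a4 higher, both with overlap. Foxi1, the 1 gene measured of the ionocyte regulators, had 107, 187 and 205 against 179, 208 and 249, a difference of -0.39 (SE 0.267; limma adjusted p = 0.909) with overlapping groups. Single pools moved this value from -0.10 without Mest-KO replicate 1 to -0.57 without Mest-KO replicate 3.

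Proton and lactate transporters had 4 genes higher and 2 lower of the 6 above the filter, with a median of 0.11. That median was negative under 3 alternatives, namely without the filter (-0.02), with median centring over all probe sets (-0.04) and with the mean of probe sets (-0.06). The sodium-proton exchanger gene Slc9a5 had the smallest p, at 104, 110 and 104 in Mest-KO against 77.1, 93.3 and 82.6 in control, a difference of 0.34 (SE 0.0985; limma adjusted p = 0.878) without overlap. Hypoxia-inducible genes, a group to which Car9 and Car12 belong, had 9 of 11 higher and a median of 0.15, or 0.01 with median centring over all probe sets. Vegfa led them at 489, 406 and 336 against 272, 246 and 282, a difference of 0.61 (SE 0.151; limma adjusted p = 0.777), while its second probe set gave -0.15. P4ha1, a collagen prolyl hydroxylase gene, differed by 0.17 without overlap at its brightest probe set. Its other probe set gave 0.09 (SE 0.158 in the probe set fit) with overlap. Car12 read 0.02 beside them, and Car9 lay below the filter. The measured partners of the inactive members, Itpr2, Itpr3, Nrxn2 and Nrxn3, differed by -0.01, -0.01, -0.03 and -0.18 at their brightest probe sets. The other 4 probe sets of Nrxn3 were lower by more, from -1.89 to -0.76, and 1 of them, below the filter, had groups that did not overlap. The second one above the filter gave -0.79 (SE 0.373 in the probe set fit) with overlap.

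**Figure D4:**
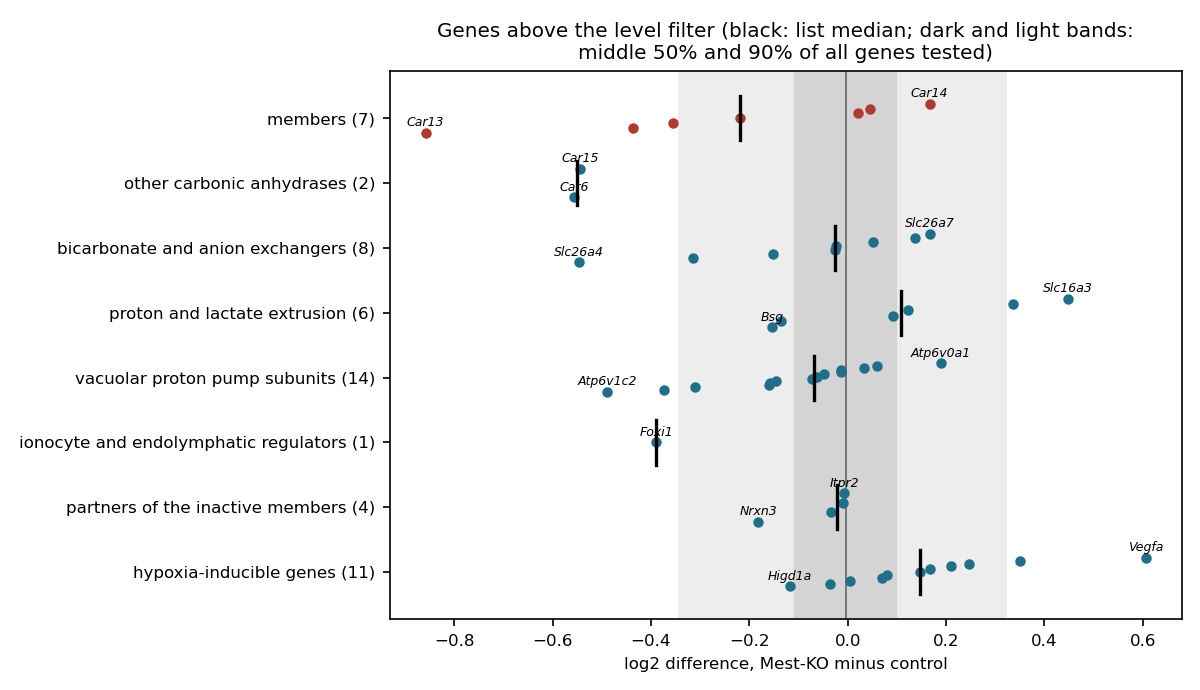
Log2 difference, Mest-KO minus control (x axis), of each gene above the level filter in the members (red) and in 7 lists of related genes (blue), with the number of genes in brackets; black lines are list medians, and the dark and light bands hold the middle 50% and 90% of the 12462 genes tested. Car13 lies at -0.86 and 3 members lie below the light band's lower edge of -0.34, as do Car6 and Car15. The members Car4, Car11, Car12 and Car14 lie inside the bands. Most genes of the transport lists do too, with Slc26a4, Atp6v1c1, Atp6v1c2, Slc9a5 and Slc16a3 outside. The members were chosen from this same comparison, so nothing is read from their place.

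Markers of other cell types were set beside these readings, because carbonic anhydrases are also expressed in blood, vessels and mesenchyme. Sums run over all measured genes of a list, and directions and medians over those above the filter alone. The otic epithelium list was level, with summed intensities of 35213 to 38218 in Mest-KO and 35547 to 37599 in control. Red blood cell markers, 6 of 8 measured genes above the filter, summed to 24770 to 28240 against 24219 to 28692, with 3 genes higher and 3 lower. Mesenchyme markers, with all 10 genes above the filter, were uneven among pools, with sums from 2182 to 6409 in Mest-KO and 1689 to 4165 in control. They were higher in Mest-KO for 9 of 10 genes, with a median of 0.48, and Snai2 had groups that did not overlap. Neuron markers, with all 10 genes above the filter, summed to 8492 to 8998 against 8169 to 8764. Of these 3 were higher and 7 lower, with a median of -0.07, and Neurod1 and Elavl3 were higher without overlap. Skeletal muscle markers, with 3 of 9 genes above the filter, summed to 405 to 536 against 338 to 481. The 3 above it were higher with overlap. Below it Myog and Myl4 read lower and the others higher. Endothelial markers, with 3 of 9 genes above the filter, summed to 373 to 552 against 349 to 402 over all 9. The 3 above it were higher in Mest-KO, with a median of 0.29. Below it Pecam1 read higher by 1.49 without overlap. Cdh5, Kdr, Tie1 and Cldn5 read higher and Esam lower (-0.66), all with overlap. Macrophage markers, with 3 of 8 genes above the filter, summed to 156 to 407 against 193 to 657 over all 8. The 3 above it were lower in Mest-KO, with a median of -0.65. Below it Csf1r and Aif1 read lower and Ptprc, Cx3cr1 and C1qa higher. The mean log2 of the 3 was highest in control 1, as was that of the red blood cell list, and Car13 was highest there too. At its brightest probe set Car13 was lowest in Mest-KO 2, where the macrophage mean of 6.35 lay above control 2 (6.26) and control 3 (5.64). At the dimmest Car13 probe set, Mest-KO 2 was instead the highest Mest-KO pool (159 against 132 and 141). The part of red blood cells, mesenchyme, neurons, skeletal muscle, endothelium and macrophages in the members' values was not tested.

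**Figure D5:**
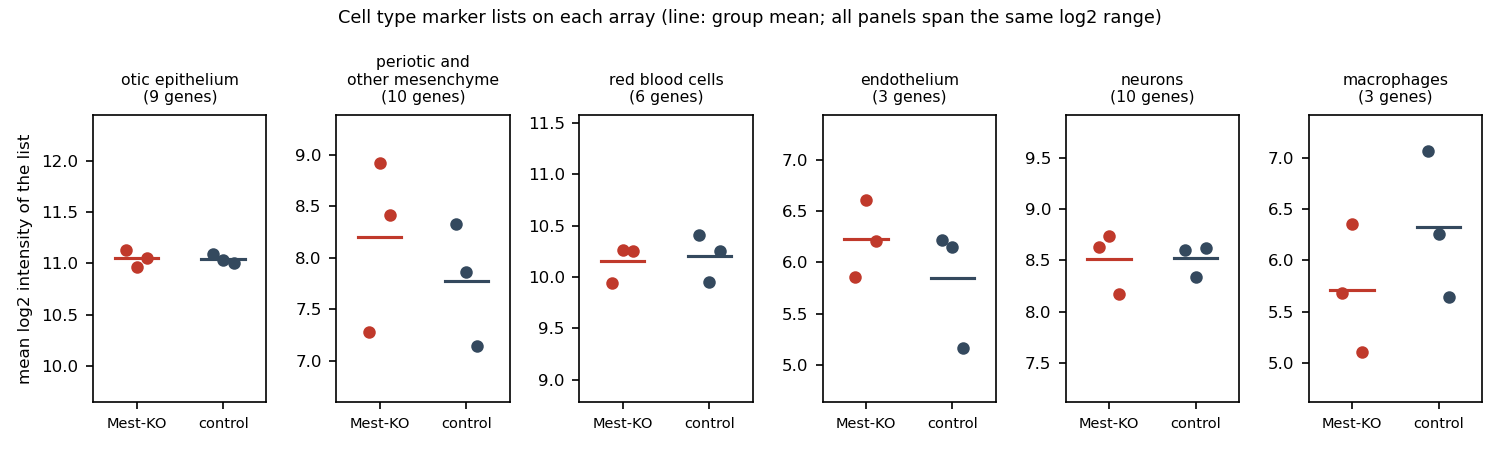
Mean log2 intensity of the marker genes above the level filter (y axis, the same span in each panel) for 6 cell types, in Mest-KO (red) and control (blue); each point is 1 of 3 pools in the order of replicate number and the line is the group mean. The otic epithelium list stays between 10.97 and 11.13 on all 6 arrays, whereas the mesenchyme list runs from 7.14 to 8.92 with overlapping groups.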

How the data were processed

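Biotin-labelled cRNA from 300 ng of total RNA was hybridised to Affymetrix mouse arrays and, per the submitters' processing notes, handled in Affymetrix Expression Console 1.1. The deposited values are linear probe set intensities, which the values show to be scaled to a trimmed mean of 500 (2% from each end). For probe summarisation and background correction, no method is named in the labels or headers. No detection calls were used. The number of arrays limits the precision.

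Of 45101 probe sets 64 controls were left out, and symbols came from the platform annotation, updated through RefSeq gene identifiers (34741 of 34945 probe sets with 1 symbol; 932 had several and 9160 none). Arrays were quantile normalized on the log2 scale, with a floor of 1 on the intensities. A gene was read from its brightest probe set and tested if its mean lay above the 40th percentile. The comparison used lmFit and eBayes of limma 3.58.1 under R 4.3.3 (no trend, no covariate, Benjamini-Hochberg over all features), checked on simulated data. Probe sets were fitted without the filter. Figures used matplotlib 3.10.9.

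The members and lists were chosen with earlier results of these data known. Named genes were the members, Tbx1, the smallest p and non-overlapping genes of each pathway list, the 3 profiles most like a member, family neighbours, and markers only beside a member. The flanking genes, Slc4a2, Slc4a4 and further transport genes were named beyond that rule. So were the partners of inactive members and the endothelial, macrophage and skeletal muscle markers below the filter. Alternatives changed the filter, scaling, floor, probe set rule, variance prior, weights, block, threshold and arrays.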

Additional observations from a re-analysis of the deposited data

How the results depend on the processing

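Causes were not tested, beyond what the construction of an alternative shows. No gene was called as reported. The calls numbered 25 with median centring over all probe sets and 3 with centring on probe sets above the filter alone (a choice added after seeing the data), 7 under a 60th percentile filter, 1 with the most variable probe set, 13 with the level-dependent prior, 16 with that prior and robust fitting, and 7 at an adjusted p under 0.10. Member genes called went from 0 to 1, Car13 each time, under the 60th percentile filter and under the level-dependent prior, robust or not. Leaving out single arrays gave 0 to 1, the 1 arising with that prior, a combination also added later. Member probe sets called went from 0 to 1 with that prior, robust or not. Without robust fitting, that prior called 13 of all 45037 probe sets. The replicate numbers did not pair the arrays (correlations of deviations -0.11, -0.01 and -0.01). A replicate block called 0 member genes, with a limma adjusted p of 0.834 for Car13.

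The median of the members, -0.22, became -0.10 on the deposited scaling and -0.34 between pools of both sexes. With 1 array left out it lay between -0.35 and -0.050. Tbx1 lay between -0.14 and 0.059 with 1 array left out, and was -0.22 between pools of both sexes and -0.17 with median centring over all probe sets. Reversed values of Tbx1 were 0.04 without Mest-KO replicate 2, 0.02 without Mest-KO replicate 3 and 0.059 without control replicate 1. Member genes lower without overlap numbered 2 to 4 over 15 alternatives, also added later: Car3 dropped out with the mean of probe sets or the most variable one, and Car4 joined without Mest-KO replicate 1 or without both single-sex pools. The share over all genes, 5.85% as reported, was not counted under the alternatives. Groups of fewer arrays separate more readily, so nothing is read from Car4 joining.

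Centring over all probe sets moved the median of all genes to -0.14, with 78.5% lower against 50.9%, and Car13 then stood at -0.99 and Car2 at -0.52. Filters, priors and the block leave a fitted difference as it is. Of the 81 distinct other values of the 7 member genes 78 moved by less than 1 SD between replicates, as did 224 of 228 for the probe sets. Leaving out 1 array cannot shift a difference by that SD. Those values were thus bound to fall within it, and nothing is read from these counts. Signal near background limits Car8, Car10 and 3 further probe sets.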
